A study of Homo sapiens with 14 samples.

Results

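Expression in U87MG gliospheres that had been kept in conditioned media (CM) of mesenchymal stem cells (MSCs) was compared with expression in the U87MG cell line from which the spheres were derived. The comparison used the 6 arrays of treated gliospheres as 1 group against the 3 arrays of the cultured cell line. The treated group holds 3 arrays of gliospheres given bone marrow CM (BMT) and 3 of gliospheres given Wharton's jelly CM (WJT). These are 9 of the 14 arrays of the series, chosen by their sample labels, and all 67528 transcript clusters were tested. The arrays of untreated gliospheres entered no fit but 1 alternative, which takes the spread from all 14 arrays, and the question was how treated spheres differ from the parental line, not what the CM changed.

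U87MG is an established human glioblastoma line. The treated cells were sorted for CD133, a surface protein used to enrich glioma stem cells (GSCs), and expanded as spheres in low-attachment plates and serum-free medium with EGF, bFGF, LIF, N2 and B27. At sphere passage 13 they received CM for 7 days, made by conditioning the same sphere medium on MSCs. The cell line received no treatment and was grown attached in medium with serum. All cells carry the U87MG genome. Sorting, sphere growth, serum, the added growth factors, passage and the CM all differ between the 2 groups, so their parts in a difference cannot be told apart. Both groups come from 1 line. The labels call the treated arrays biological replicates without naming the MSC donor of each, and give the cell line arrays a replicate number with no word on separate cultures. A p therefore measures no more than the spread among the arrays at hand, which for the cell line may be technical.

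Cells make cholesterol from acetyl-CoA through the mevalonate pathway and then through squalene and lanosterol, and they make fatty acids from the same precursor. The enzymes of both routes are transcribed under SREBP transcription factors. SREBPs are held in the endoplasmic reticulum by INSIG proteins while sterols are plentiful and are released when sterols run low, and serum lipoproteins taken up through the LDL receptor are one source of sterol for cultured cells.

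The signals are log2 values per transcript cluster. The treated arrays were close to each other and the cell line arrays were not. Over all clusters the Euclidean distance between 2 treated arrays was 66.9 to 100.2, while the 3 cell line arrays lay 181.4 to 242.5 apart. Cell line replicate 1 lay 118.1 to 134.2 from the treated arrays, nearer than it lay to the other cell line arrays. Replicate 2 lay 153.4 to 191.5 and replicate 3 lay 235.1 to 247.4 from them. The array medians ran from 3.58 to 3.92 and the 10th percentiles from 2.98 to 3.15, so a signal below about 4 is near background. Vimentin (VIM), an intermediate filament of glioma and mesenchymal cells, was at 15.58 to 15.81 on all 9 arrays, whereas GFAP, the astrocyte filament, was at 3.49 to 3.81, and the stem and neural markers PROM1 (which encodes CD133), SOX2, MSI1 and OLIG2 were also below 4 on every array. PROM1 was at 3.51 to 3.65 in treated gliospheres and at 3.36, 3.42 and 3.55 in the cell line, so its array signal was near background in both groups. The sort used CD133 protein, which these arrays do not measure. The study reports CD133 protein in the sorted cells by flow cytometry and in untreated gliospheres by staining. Its PCR array listed PROM1 as raised in untreated gliospheres, without significance. The low array signal therefore does not show that the treated cells lacked CD133.

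**Figure D1:**
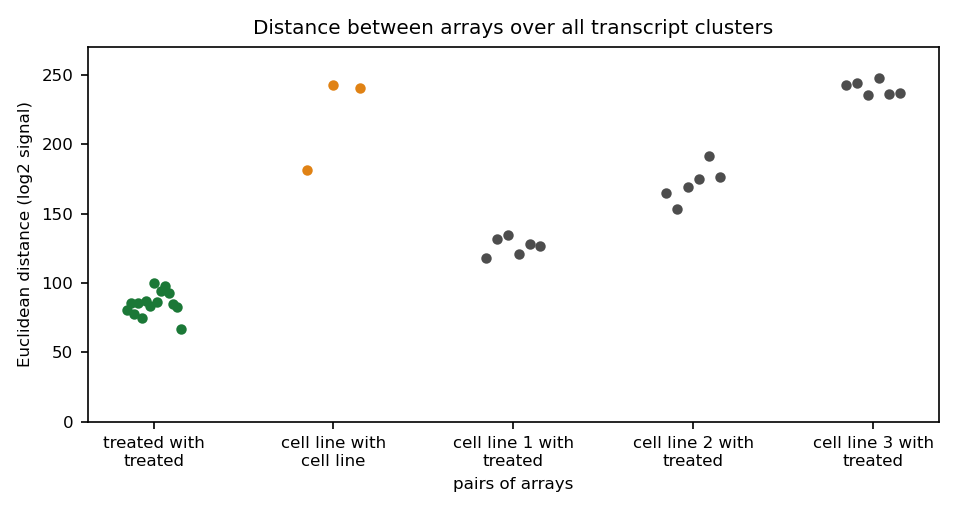
Euclidean distance between pairs of arrays over all transcript clusters (y axis, log2 signal), by kind of pair (x axis); each point is 1 pair. The 15 pairs of treated arrays lie at 66.9 to 100.2, below every pair that includes a cell line array.

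At a limma p adjusted over all clusters (Benjamini-Hochberg) below 0.05, 651 clusters were higher (0.964% of 67528) and 634 were lower (0.939%) in CM-treated gliospheres than in the cell line. The 2 groups overlapped in none of these clusters. Over all clusters, called or not, 3.5% lay above and 4.72% below the cell line without overlap. Of the higher clusters 358, and of the lower clusters 271, differed by at least 2-fold. Among 22465 genes, each represented by its brightest cluster, 388 were higher (1.73%) and 321 were lower (1.43%), and the groups did not overlap in 6.26% of genes in the higher and 5.68% in the lower direction. The median log2 difference was -0.03 over genes and -0.07 over clusters. Before adjustment, 3706 of the 67528 clusters were higher and 7060 lower at a limma p of 0.05 or less. Among the 23781 clusters with 1 symbol, fitted alone, 2324 were higher and 2552 lower at that level. In bulk RNA, fewer cells of a kind and less RNA per cell cannot be told apart.

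The balance of the 2 directions depended on how the arrays were scaled and on the cell line arrays. The share of calls that were higher was 50.7% on the deposited values, 75% after quantile normalization and 65.1% after centring each array on its median, which moved the median difference of all clusters from -0.07 to 0.02 and 0.04. Without cell line replicate 1 the counts were 1468 higher and 2780 lower, without replicate 2 they were 780 and 650, and without replicate 3 they were 513 and 993. In all 9 fits that left out 1 array in turn, 237 higher and 173 lower clusters passed, and 138 and 97 of these had 1 gene symbol.

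The cholesterol pathway had the most calls of the gene lists. Over all genes 1.73% passed as higher and 1.43% as lower, the shares to set beside each list. Of 18 measured enzymes of cholesterol synthesis, 13 were higher in CM-treated gliospheres, none was lower, and the list had a median log2 difference of 1.48. The largest rise among called clusters with 1 symbol was that of HMGCS1, and the smallest p of all clusters was that of CYP51A1. In the fits that left out 1 array, 11 to 14 of the 18 passed.

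HMGCS1, which makes HMG-CoA, was at 14.48, 14.81 and 15.23 (lowest, median and highest of the 6 treated arrays) and at 7.18, 8.79 and 6.47 in cell line replicates 1, 2 and 3. Every treated array was far above every cell line array, and the cell line arrays spread over more than 2 log2 units. The log2 difference was 7.35 (95% confidence interval 6.37 to 8.33, adjusted p = 0.000247), a fold of 163. The fit pools the spread of both groups, so this interval may be too narrow for the scattered cell line arrays. ACAT2, the thiolase that precedes HMGCS1, was at 10.06, 10.17 and 10.73 against 7.02, 8.52 and 7.98, a log2 difference of 2.42. In both genes cell line replicate 2 was the highest of the cell line arrays.

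The enzymes from mevalonate to farnesyl pyrophosphate differed less. Mevalonate kinase (MVK) was higher by 0.59, mevalonate decarboxylase (MVD) by 1.75, the isomerase IDI1 by 1.9 and farnesyl pyrophosphate synthase (FDPS) by 1.25 on the log2 scale (adjusted p from 0.00192 to 0.0372). IDI1 was at 7.52, 7.70 and 8.01 in treated gliospheres and at 5.59, 6.41 and 5.53 in the cell line. Phosphomevalonate kinase (PMVK), which acts between MVK and MVD, did not follow. It was at 6.21, 6.35 and 6.79 against 7.00, 6.32 and 7.26, so the groups overlapped (log2 difference -0.46, adjusted p = 0.321).

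From squalene to cholesterol the differences were again large. Squalene epoxidase (SQLE), the first oxygen-requiring step, was at 12.62, 12.83 and 12.96 in treated gliospheres and at 9.47, 8.86 and 8.87 in the cell line, 3.75 higher (fold 13.4, adjusted p = 1.344e-05). Lanosterol demethylase (CYP51A1) was at 13.68, 13.85 and 13.96 against 10.16, 10.43 and 10.09. Both groups were tight in CYP51A1, with SDs of 0.11 (n = 6) and 0.18 (n = 3), and the log2 difference was 3.60 (95% confidence interval 3.37 to 3.83, adjusted p = 3.855e-06). The C4-demethylation enzymes MSMO1 and NSDHL were higher by 4.13 and 1.70. MSMO1 was at 15.96, 16.18 and 16.24 against 11.81, 12.46 and 11.72, and both groups kept within 1 log2 unit.

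The last steps were higher too. DHCR7, which reduces 7-dehydrocholesterol to cholesterol, was at 11.64, 11.94 and 13.02 in treated gliospheres and at 8.12, 6.60 and 7.59 in the cell line, a log2 difference of 4.70 (adjusted p = 0.00143). The sterol isomerase EBP was higher by 1.14 and the desaturase SC5D by 1.13. EBP and MVK passed in 2 of the 9 fits that left out 1 array, and the other 11 called enzymes passed in all 9. Lanosterol synthase (LSS) was at 6.50, 6.85 and 7.33 against 6.31, 5.42 and 5.65 without overlap, but did not pass (adjusted p = 0.0707), and HSD17B7 did not pass either (log2 difference 0.84, adjusted p = 0.159).

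**Figure D2:**
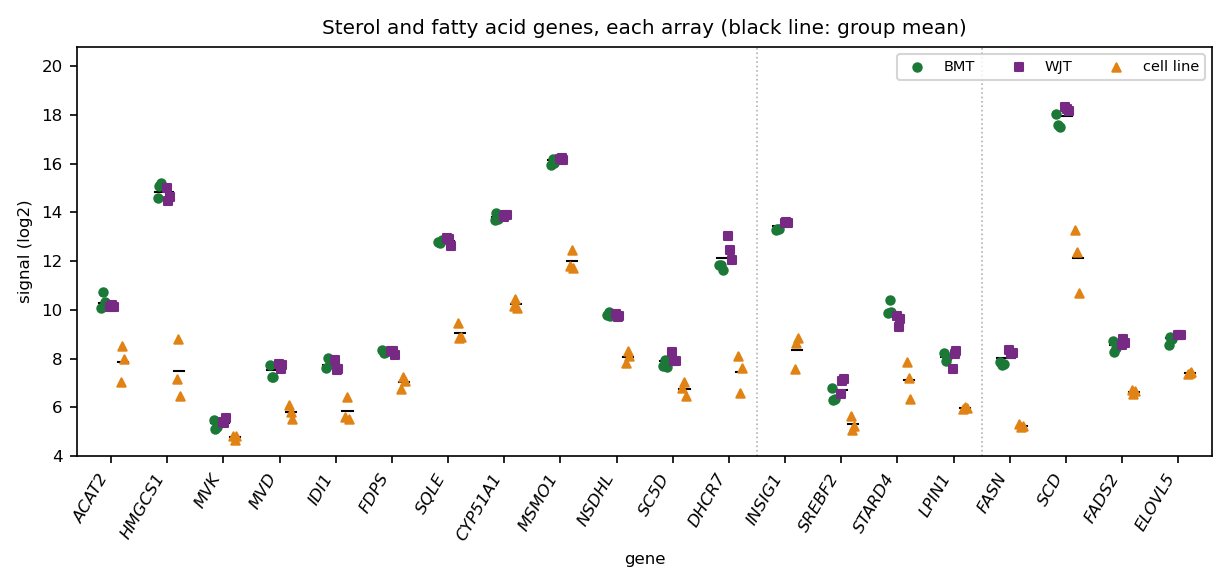
Log2 signal (y axis) of 20 genes (x axis) on each of the 9 arrays: circles BMT, squares WJT, triangles cell line, black lines the means of the 6 treated and the 3 cell line arrays. From left to right are cholesterol enzymes, genes of SREBP control and sterol handling, and fatty acid enzymes; in all 20 the treated arrays lie above the cell line arrays.

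Regulators of the pathway were higher with it, as 6 of 13 measured genes of SREBP control and sterol uptake passed, all in the higher direction. INSIG1, the SREBP target that retains SREBPs in the endoplasmic reticulum, was at 13.28, 13.44 and 13.59 in treated gliospheres and at 7.56, 8.63 and 8.86 in the cell line. No 2 arrays of the groups came within 4 log2 units, and the log2 difference was 5.09 (fold 34.0, adjusted p = 8.452e-05). The transcription factors were less different, with SREBF2 at 6.32, 6.67 and 7.15 against 5.63, 5.07 and 5.25 (1.39 higher) and SREBF1 higher by 0.46, which passed in 2 of 9 fits that left out 1 array. INSIG2, the second INSIG gene, went the other way in 2 of 3 cell line arrays: it was at 8.34, 8.57 and 8.80 in treated gliospheres and at 10.64, 10.76 and 8.70 in the cell line, and did not pass (adjusted p = 0.123).

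The sterol carrier STARD4 was higher by 2.67 and the phosphatidate phosphatase LPIN1 by 2.09 (adjusted p = 0.00781 and 0.000849). LPIN1 was at 7.58, 8.12 and 8.33 against 5.91, 6.02 and 5.95, so the 3 cell line arrays were nearly equal. TMEM97, a sterol-regulated membrane protein, was higher by 0.79 and passed in 2 of 9 fits that left out 1 array. Genes of the opposite arm did not move as a group. Of 11 measured LXR targets and sterol efflux genes, 1 passed: SOAT1, which esterifies cholesterol for storage, was at 8.40, 8.97 and 9.11 against 9.96, 9.86 and 10.06, which is 1.09 lower on the log2 scale (adjusted p = 0.0161).

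Fatty acid enzymes were higher in 7 of 17 measured genes, none was lower, and the median of the list was 0.33. Stearoyl-CoA desaturase (SCD), which makes monounsaturated fatty acids, was at 17.50, 18.09 and 18.31 in treated gliospheres and at 13.27, 12.39 and 10.69 in the cell line. The cell line arrays spread over more than 2 log2 units and still lay below every treated array, and the log2 difference was 5.85 (fold 57.8, adjusted p = 0.0016). Fatty acid synthase (FASN) was at 7.75, 8.04 and 8.34 against 5.30, 5.19 and 5.24, a log2 difference of 2.78 with almost no spread in the cell line. The desaturase FADS2, the elongase ELOVL5 and acetyl-CoA carboxylase (ACACA) were higher by 1.95, 1.46 and 1.87. The acetyl-CoA suppliers ACSS2 and ACLY were higher by 0.84 and 1.58. These 2 passed in 4 and in 1 of the 9 fits that left out 1 array, and the other 5 passed in all of them.

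The promoters of 5 of these genes are shown because the genes differed together and SREBPs are known to act on their transcription. Each window holds 250 bases before and 50 after the start of transcription in RefSeq (GRCh38.p14), 5′ to 3′ on the strand of the gene. Capitals mark the CCAAT box, bound by the factor NF-Y that acts beside SREBPs, on either strand (CCAAT or ATTGG).
HMGCS1, chr5:43313363-43313662, minus strand: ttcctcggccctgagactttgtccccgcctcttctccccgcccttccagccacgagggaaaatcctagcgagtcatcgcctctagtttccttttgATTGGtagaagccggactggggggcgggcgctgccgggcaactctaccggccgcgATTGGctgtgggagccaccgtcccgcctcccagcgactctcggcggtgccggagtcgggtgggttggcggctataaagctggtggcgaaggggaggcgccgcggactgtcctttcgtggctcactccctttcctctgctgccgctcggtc
MSMO1, chr4:165327419-165327718, plus strand: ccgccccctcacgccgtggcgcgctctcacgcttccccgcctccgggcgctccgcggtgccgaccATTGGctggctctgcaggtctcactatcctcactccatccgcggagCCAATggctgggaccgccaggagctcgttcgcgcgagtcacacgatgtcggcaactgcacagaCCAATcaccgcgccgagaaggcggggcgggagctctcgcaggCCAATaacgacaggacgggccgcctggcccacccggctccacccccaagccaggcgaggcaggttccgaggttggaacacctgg
INSIG1, chr7:155297628-155297927, plus strand: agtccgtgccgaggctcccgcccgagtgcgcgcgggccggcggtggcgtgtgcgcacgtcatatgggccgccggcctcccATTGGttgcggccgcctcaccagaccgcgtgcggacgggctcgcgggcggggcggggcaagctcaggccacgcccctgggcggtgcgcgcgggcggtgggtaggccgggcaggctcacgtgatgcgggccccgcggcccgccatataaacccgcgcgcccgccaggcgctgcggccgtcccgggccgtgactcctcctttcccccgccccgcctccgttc
CYP51A1, chr7:92134428-92134727, minus strand: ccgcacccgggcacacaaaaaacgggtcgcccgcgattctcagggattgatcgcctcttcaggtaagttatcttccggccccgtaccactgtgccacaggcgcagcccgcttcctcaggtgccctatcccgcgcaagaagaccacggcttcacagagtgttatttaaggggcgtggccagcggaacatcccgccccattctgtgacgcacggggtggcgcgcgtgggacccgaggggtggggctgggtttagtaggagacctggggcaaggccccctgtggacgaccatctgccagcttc
SCD, chr10:100346983-100347282, plus strand: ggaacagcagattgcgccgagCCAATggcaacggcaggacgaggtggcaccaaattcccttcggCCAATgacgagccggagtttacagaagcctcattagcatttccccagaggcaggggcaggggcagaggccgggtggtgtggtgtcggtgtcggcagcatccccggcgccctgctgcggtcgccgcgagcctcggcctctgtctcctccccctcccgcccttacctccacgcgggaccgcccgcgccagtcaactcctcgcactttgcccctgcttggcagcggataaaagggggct

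MSMO1 held 4 CCAAT boxes in this window, HMGCS1 and SCD held 2 each, INSIG1 held 1 and CYP51A1 held none. Of the 26 genes of the 3 lists that were higher, 23 had a promoter window, and 24 of their 35 windows (68.6%) held CCAAT on either strand, compared with 34.6% of all 35116 windows. Counted by gene, 20 of 23 had at least 1 window with it, compared with 39.7% of all genes. The E box CACGTG, which SREBP-1 can also bind, stood in 11.4% of the 35 windows and in 7.26% of all. The letters TCACCCCAC of the sterol regulatory element of the LDL receptor, searched on both strands, stood in 1 of the 35 windows, that of SREBF2, and in 0.43% of all. A match is a description of the letters in the window and was not tested as a binding site. The lists were drawn up for genes of these routes, and their members that did not pass were not counted. The shares therefore do not bear on why the genes were higher.

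Outside lipid synthesis, the largest rises were in genes of diverse kinds. IGFL3, a secreted protein of the IGF-like family, was at 11.72, 13.11 and 15.19 in treated gliospheres and at 7.43, 6.91 and 7.69 in the cell line. The treated arrays spread over more than 3 log2 units but none overlapped the cell line, and the log2 difference was 5.98 (adjusted p = 0.00615). PI3 (elafin), an inhibitor of neutrophil elastase, was at 10.72, 12.65 and 14.06 against 8.73, 6.70 and 6.85, which is 5.15 higher (adjusted p = 0.0116). TMEM154, a membrane protein, was at 11.29, 11.52 and 12.34 against 7.59, 8.11 and 8.30, which is 3.62 higher (adjusted p = 0.00052).

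GCLM, the modifier subunit of the enzyme that starts glutathione synthesis, was at 11.61, 12.07 and 12.94 in treated gliospheres and at 8.71, 8.91 and 8.91 in the cell line. The cell line arrays were nearly equal and the log2 difference was 3.37 (fold 10.3, adjusted p = 0.00223). Argininosuccinate synthase (ASS1), which lets cells make arginine, was at 11.34, 11.93 and 12.55 against 9.0, 8.91 and 8.34, 3.19 higher. RAB3B, a GTPase of regulated secretion, IVNS1ABP, a kelch protein, and RFTN2, a lipid raft protein, were higher by 3.10, 3.01 and 3.00. All 8 of these genes passed in each of the 9 fits that left out 1 array. PI3 did not pass in the fit of all 14 arrays, and RFTN2 did not pass with array weights. With BMT alone against the cell line TMEM154 and GCLM passed, and IGFL3, PI3, ASS1, RAB3B, IVNS1ABP and RFTN2 did not.

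Besides GCLM, the NRF2 and iron list held genes in both directions (3 higher and 2 lower of 21). The aldo-keto reductases AKR1C1 and AKR1C2 were higher by 1.86 and 1.5, but their sequences are so alike that the array may not separate them. Heme oxygenase HMOX1, which breaks down heme, was at 6.23, 6.81 and 6.96 in treated gliospheres and at 8.27, 7.57 and 8.70 in the cell line, 1.45 lower on the log2 scale (adjusted p = 0.0244). The transferrin receptor TFRC was at 11.06, 11.55 and 11.70 against 12.66, 12.31 and 12.33, which is 0.94 lower (adjusted p = 0.02). With 1 array left out, AKR1C2 passed in 9, TFRC in 8, HMOX1 in 4 and AKR1C1 in 3 of 9 fits. In the fit of all 14 arrays HMOX1 passed, and AKR1C1, AKR1C2 and TFRC did not.

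**Figure D3:**
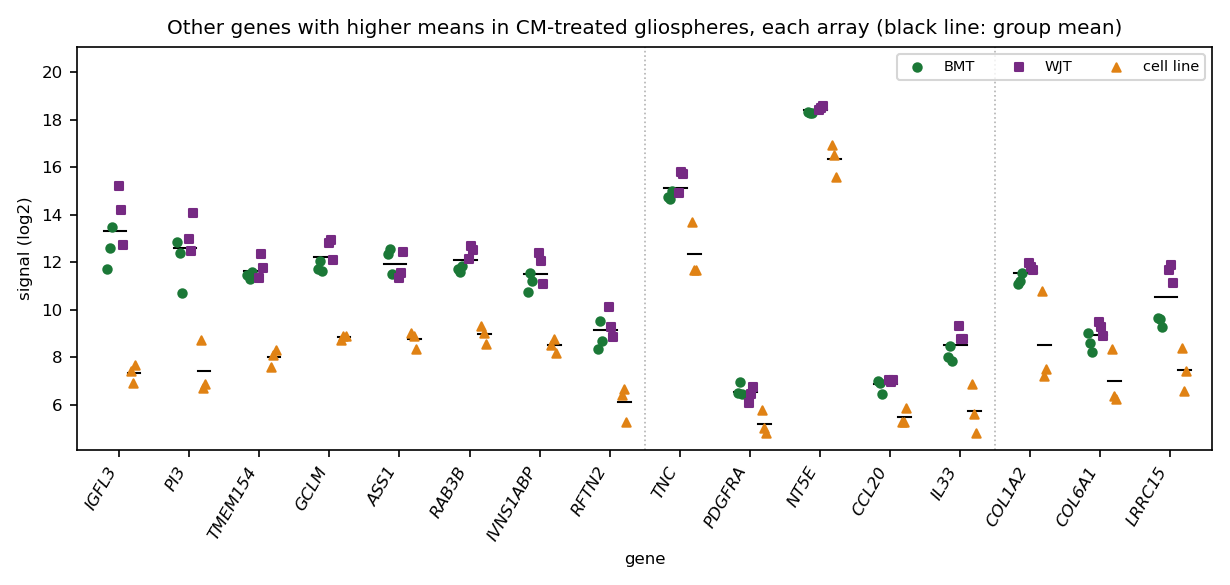
Log2 signal (y axis) of 16 genes (x axis) with higher means in CM-treated gliospheres on each of the 9 arrays: circles BMT, squares WJT, triangles cell line, black lines the group means. The dotted lines set apart the largest rises, genes of other lists that passed, and 3 matrix genes that did not pass; in the matrix genes cell line replicate 1 is the highest triangle, for COL1A2 at 10.78.

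Matrix and receptor genes gave few calls. Of 42 matrix and adhesion genes 4 passed, all higher. Tenascin-C (TNC), a matrix glycoprotein of gliomas, was at 14.65, 14.94 and 15.78 in treated gliospheres and at 13.68, 11.67 and 11.66 in the cell line (log2 difference 2.79, adjusted p = 0.0242). Integrin ITGA6, a laminin receptor used as a GSC marker, the hyaluronan receptor CD44 and fibrillin FBN2 were higher by 0.70, 0.48 and 1.23. These 4 passed in 1 or 2 of the 9 fits that left out 1 array. CD44 had 2 clusters, and the other one, higher by 0.28, did not pass. THBS1, a matrix protein induced by serum, was at 4.72, 5.03 and 5.31 against 10.64, 7.60 and 5.24, so cell line replicate 3 lay within the treated range (log2 difference -2.82, adjusted p = 0.183).

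None of 25 collagens passed (limma, adjusted p). Before adjustment 11 reached 0.05 in either direction, beside 2324 higher and 2552 lower of the 23781 clusters with 1 symbol, fitted alone. In 9 of the 25 the treated arrays lay above all cell line arrays without overlap, compared with 6.26% of all genes. COL1A2, a chain of type I collagen, was at 11.07, 11.60 and 11.97 in treated gliospheres and at 10.78, 7.20 and 7.52 in the cell line. Replicate 1 was close to the lowest treated array and the other 2 were more than 3 log2 units lower (log2 difference 3.04, adjusted p = 0.0681). COL6A1 was at 8.23, 8.95 and 9.48 against 8.34, 6.37 and 6.23, so replicate 1 lay within the treated range. LRRC15, a membrane protein of activated fibroblasts, was at 9.26, 10.39 and 11.87 against 8.38, 6.58 and 7.41 (adjusted p = 0.0636). COL6A2 and COL12A1 had differences of 1.45 and 1.23 and adjusted p of 0.0834 and 0.093. Among the 11 collagens with a mean signal of at least 5, tested with the clusters at that level, 4 passed as higher. That mean is over the 9 arrays, 6 of them treated. A gene can thus enter through high treated signals, and the count is not separate support for a rise. The fit of all 14 arrays called 2 of 25 and the fit with BMT and WJT as separate groups called 1. LRRC15 passed in both of these fits. Without cell line replicate 1, 7 of 25 collagens and 16 of 42 matrix and adhesion genes passed as higher. Without replicate 2 none of either list passed, and without replicate 3 the matrix list had 0 higher and 3 lower genes.

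Among the 15 largest falls were IGFBP1, IGFBP3, ZNF175, ID1 and DKK1. IGFBP1, which binds and limits insulin-like growth factors, was near background in every treated array, at 3.80, 3.82 and 4.08, and at 11.97, 8.52 and 6.46 in cell line replicates 1, 2 and 3. IGFBP3, the main IGF carrier of serum, was at 5.51, 5.55 and 5.83 against 11.56, 10.34 and 7.08. In both genes the treated arrays were tight and the cell line arrays were all above them but far apart, with replicate 1 highest and replicate 3 lowest. The fitted log2 differences were -5.10 (adjusted p = 0.0322) and -4.04 (adjusted p = 0.0391). With the treated arrays near background, the value for IGFBP1 is a lower limit on the size of the fall, as are those of other genes with treated signals near 4 (UGT2B10, FDCSP, RARB, DKK1, SMAD9). They were the 2 genes called of 13 in the IGF list. Both passed in 2 of the 9 fits that left out 1 array, those without cell line replicate 1 and without replicate 3.

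ID1, an inhibitor of differentiation that BMP signals induce, was at 5.08, 5.22 and 5.45 in treated gliospheres and at 9.43, 9.51 and 6.84 in the cell line. All treated arrays were below all cell line arrays, of which replicate 3 was lowest, and the log2 difference was -3.37 (fold 10.3, adjusted p = 0.0181). ID2 was at 4.68, 4.79 and 5.02 against 6.51, 6.38 and 5.42, a log2 difference of -1.29. SMAD9, a BMP effector, was lower by 0.63 on the log2 scale, and ID4 was at 3.55, 3.73 and 4.13 against 4.54, 4.37 and 4.32 without passing (adjusted p = 0.0677). Of 25 TGF-beta and BMP targets 3 were lower, none was higher, and ID1 alone of them passed in 8 of 9 fits that left out 1 array, while ID2 and SMAD9 passed in 3.

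DKK1, a secreted antagonist of Wnt signals, was at 4.13, 4.33 and 4.48 in treated gliospheres and at 7.96, 6.87 and 5.72 in the cell line, a log2 difference of -2.53 (adjusted p = 0.0176). It was the 1 gene called of 28 in the Wnt list, compared with 1.43% of all genes called as lower. The zinc finger protein ZNF175 was at 6.64, 7.10 and 7.47 against 10.39, 11.96 and 9.03 (log2 difference -3.40). SNAP25, a SNARE protein of neurosecretion, was at 6.01, 6.28 and 6.56 against 9.62, 9.24 and 7.52 (-2.52), and the retinoic acid receptor RARB was at 4.01, 4.17 and 4.37 against 7.77, 6.76 and 5.0 (-2.32). DKK1 and ZNF175 passed in 8, SNAP25 in 7 and RARB in 2 of the 9 fits that left out 1 array.

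The remaining genes among the 15 largest falls had log2 differences from -2.62 to -2.16. UGT2B10, a glucuronosyltransferase, was lower in all 4 of its clusters, with log2 differences of -2.62 to -1.29, but genes of this family are alike in sequence and the array may not separate them. FDCSP, a small secreted peptide, was at 4.0, 4.37 and 4.62 against 6.07, 8.45 and 6.04. The lectin CLEC2B, the mitochondrial cysteine tRNA synthetase CARS2, the endosomal protein FERRY3 and the pseudogene AK4P3, whose probes may also bind its parent gene, were lower by 2.20, 2.19, 2.16 and 2.20 on the log2 scale. Small nucleolar RNA SNORA71B and small Cajal body RNA SCARNA2 were lower by 2.39 and 2.32. Of these 8 genes UGT2B10, CLEC2B, CARS2 and AK4P3 passed in all 9 fits that left out 1 array, SCARNA2 in 8, FERRY3 in 5, FDCSP in 3 and SNORA71B in 2.

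**Figure D4:**
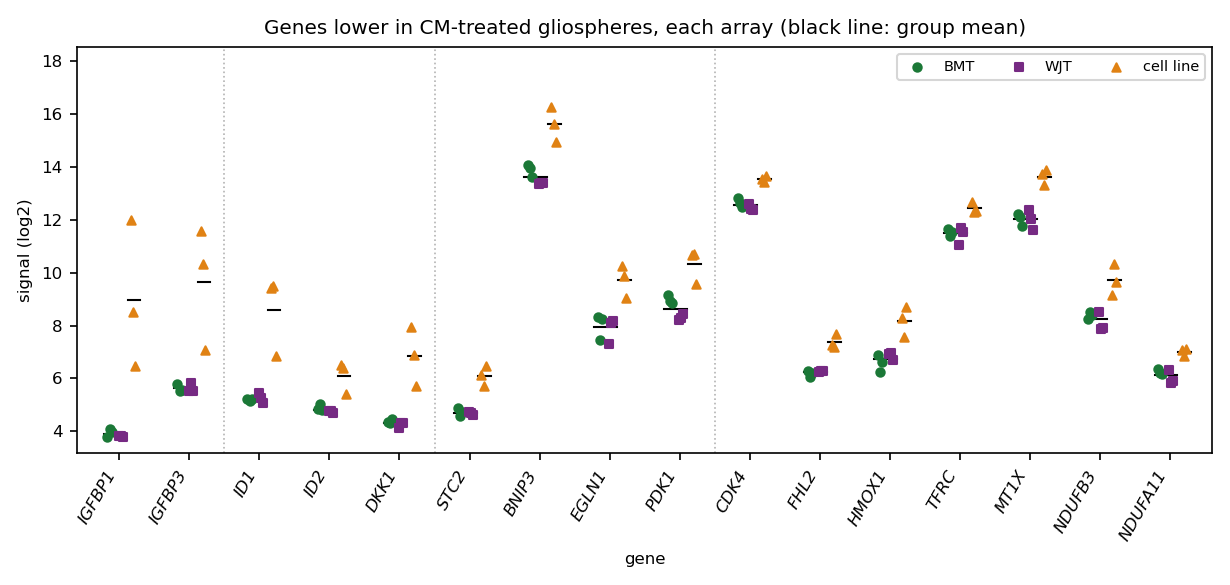
Log2 signal (y axis) of 16 genes (x axis) that were lower in CM-treated gliospheres on each of the 9 arrays: circles BMT, squares WJT, triangles cell line, black lines the group means. The cell line arrays are far apart in IGFBP1, IGFBP3, ID1 and DKK1 (11.97, 8.52 and 6.46 in IGFBP1) and close together in STC2, CDK4, FHL2 and MT1X.

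HIF targets are genes that cells induce when oxygen is low. Of 29 measured, 4 were lower and none higher, and 22 of 29 had a negative difference. The median log2 difference was -0.53, beside -0.03 over all genes. BNIP3, a mitophagy receptor, was at 13.36, 13.52 and 14.09 in treated gliospheres and at 16.26, 15.63 and 14.95 in the cell line (log2 difference -1.98, adjusted p = 0.0141). The groups were clearly apart and BNIP3 passed in all 9 fits that left out 1 array. STC2, a secreted glycoprotein, was at 4.58, 4.71 and 4.89 against 6.13, 5.70 and 6.48 (-1.39, adjusted p = 0.00575) and also passed in all 9.

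The oxygen sensor EGLN1 was at 7.31, 8.13 and 8.33 in treated gliospheres and at 10.25, 9.87 and 9.03 in the cell line, and pyruvate dehydrogenase kinase PDK1 was at 8.22, 8.65 and 9.14 against 10.65, 10.71 and 9.59. They were lower by 1.78 and 1.68 on the log2 scale and passed in 3 of 9 fits each. The glycolytic genes PGK1 and HK2 were lower without overlap but did not pass (log2 differences -0.81 and -0.87, adjusted p = 0.0807 and 0.142). Without cell line replicate 1 the list had 4 higher and 4 lower genes, without replicate 2 it had 0 and 2, and without replicate 3 it had 0 and 7. Its median without replicate 1 was -0.20, without replicate 2 it was -0.41 and without replicate 3 it was -0.75. The median was -0.375 after quantile normalization, with 3 genes lower, and -0.415 after median centring, with 2 lower.

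Subunits of complex I, the first enzyme of the respiratory chain, were lower in 4 of 30 measured genes and none was higher. The median log2 difference was -0.44, beside -0.03 over all genes. Of the 30, 25 had a negative difference. In 10 the treated arrays lay below without overlap, compared with 5.68% of all genes, and 1.43% of all genes passed as lower. NDUFB3 was at 7.87, 8.32 and 8.51 in treated gliospheres and at 9.17, 10.31 and 9.66 in the cell line (-1.47). NDUFA11 was lower by 0.88, NDUFB5 by 0.77 and NDUFA3 by 0.54 on the log2 scale (adjusted p from 0.0186 to 0.0373). Of the 4, NDUFA11 passed in all 9 fits that left out 1 array, but not in the fit of all 14 arrays. Without cell line replicate 1, 10 of the 30 passed as lower, and the count ran from 1 to 10 over the 9 fits. The median was -0.275 after quantile normalization, with 3 genes lower, and -0.322 after median centring, with 5 lower.

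Among lists for growth and stress, single genes passed. With 1.73% of all genes called as higher and 1.43% as lower, 1 call was not read as a result about its list. The cyclin-dependent kinase CDK4, of the G1 phase, was at 12.37, 12.54 and 12.84 in treated gliospheres and at 13.55, 13.42 and 13.67 in the cell line, a log2 difference of -0.99 (adjusted p = 0.00725). It was the 1 gene called of 38 in the DNA replication list and passed in all 9 fits that left out 1 array. None of 39 mitosis genes passed at the adjusted p of limma. Of them 6 reached 0.05 before adjustment in either direction, beside 2324 higher and 2552 lower of the 23781 clusters with 1 symbol, fitted alone. Without cell line replicate 2, 9 of the 39 passed as higher, and without replicate 1, 2 passed as lower. FHL2, a cofactor of serum response factor, was at 6.06, 6.25 and 6.30 against 7.26, 7.20 and 7.68 (-1.16, adjusted p = 0.00336), the 1 called of 24 YAP and serum response factor targets. None of 23 immediate early genes passed, 5 reached 0.05 before adjustment, and 2 were higher without cell line replicate 1 and 3 were lower without replicate 2.

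Metallothionein MT1X, which binds zinc and copper, was lower by 1.62 on the log2 scale (11.63, 12.07 and 12.38 against 13.73, 13.30 and 13.88), and 8 other metallothioneins did not pass. In the integrated stress response list ALDH1L2, a mitochondrial folate enzyme, and the tRNA synthetase GARS1 were higher by 2.42 and 1.17, and STC2 was lower. PSAT1, of serine synthesis, spread over 3 log2 units among treated arrays, at 10.25, 11.35 and 13.26 against 8.45, 9.55 and 10.12, and did not pass (adjusted p = 0.126). SEC63 and SRP9, of protein entry to the endoplasmic reticulum, were higher by 1.05 and lower by 1.09. The nucleolar proteins NCL and NOLC1 were higher by 0.54 and 0.73, the 2 called of 37 ribosome biogenesis genes. In that list 5 passed as lower without cell line replicate 1. The p53 target TP53I3 was lower by 0.48. Of the called genes of this paragraph, MT1X, NCL, NOLC1 and TP53I3 did not pass in the fit of all 14 arrays.

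Immune and inflammatory genes gave 3 higher calls among 30 chemokines and cytokines. CCL20, a chemokine for dendritic and T cells, was at 6.45, 6.97 and 7.03 in treated gliospheres and at 5.28, 5.28 and 5.86 in the cell line (1.42 higher, adjusted p = 0.00756). CXCL5, a neutrophil chemokine, was at 5.20, 5.62 and 5.99 against 4.17, 3.98 and 4.41, and the alarmin IL33 was at 7.84, 8.62 and 9.31 against 6.86, 5.61 and 4.80. CCL2, the monocyte chemokine, had a larger difference of 4.86 but did not pass (adjusted p = 0.0557). It was at 12.26, 14.13 and 15.61 against 10.96, 10.56 and 6.58, with cell line replicate 3 apart from the other 2. In the fit with all 14 arrays none of the 30 passed, and without cell line replicate 1, 6 passed as higher. CCL20 and CXCL5 passed in all 9 fits that left out 1 array and IL33 in 5.

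None of 16 MHC class II genes passed. Before adjustment 1 reached 0.05, beside 2324 higher and 2552 lower of the 23781 clusters with 1 symbol, fitted alone. Of 20 MHC class I genes the peptidase ERAP2 was higher by 1.44, compared with 1.73% of all genes called as higher. Of 33 interferon-stimulated genes OAS2 and IRF1 were higher by 0.85 and 0.55 and IFI35 was lower by 0.61, and 6 were higher without cell line replicate 1.

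Of 33 glioma stem cell and pluripotency genes, ITGA6 and CD44 were higher, none was lower and the median was 0.09. Both genes are also in the matrix and adhesion list. Over the 9 fits that left out 1 array, 0 to 2 of the 33 passed as higher and 0 to 2 as lower. In 7 of the 33 the treated arrays lay above the cell line without overlap, compared with 6.26% of all genes. Among the 11 with a mean signal of at least 5, tested with the clusters at that level, 3 were higher and the median was 0.43. A gene can enter this subset through high treated signals, so these values are not separate support for a rise. Nestin (NES), a neural progenitor filament, was at 4.43, 4.60 and 4.84 in treated gliospheres and at 4.36, 4.32 and 4.28 in the cell line, and did not pass. Of the 30 measured genes that the study names for its cancer stem cell array, ITGA6 was higher, DKK1 and ID1 were lower and 27 did not pass, with differences from -1.68 to 0.87. ABCG2, a drug efflux pump of stem cells, had the lowest of these, at 4.85, 5.21 and 5.38 against 5.98, 8.62 and 5.94, where cell line replicate 2 stood apart (adjusted p = 0.173). Among 21 astrocyte, neuron and oligodendrocyte genes the growth factor receptor PDGFRA was higher by 1.32. It passed in 2 of 9 fits that left out 1 array and did not pass in the fit of all 14 arrays. None of 17 Notch genes passed. Before adjustment 3 reached 0.05 in either direction, beside 2324 higher and 2552 lower of the 23781 clusters with 1 symbol, fitted alone.

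MSC markers were counted because the CM was made on MSCs. Of 11 measured, NT5E (CD73), an enzyme that glioma cells also carry, was higher, at 18.26, 18.37 and 18.55 against 16.95, 16.53 and 15.59 (log2 difference 2.03, adjusted p = 0.00787), and the other 10 did not pass. THY1, NGFR and ALPL were below 4 on all 9 arrays, ENG (CD105) was at 6.71 to 8.51, and PDGFRB had a log2 difference of 1.57 (adjusted p = 0.159). The summed level of the list was 18.26 to 18.55 in treated gliospheres and 15.61 to 16.97 in the cell line, most of it NT5E. All 9 blood and platelet markers were below 4 on every array, with summed levels of 6.49 to 6.65 and 6.52 to 6.76. None of 8 endothelial markers (6.85 to 6.95 and 6.74 to 6.87) and 7 epithelial markers (6.77 to 6.97 and 6.95 to 7.32) passed. The part of these levels in the other results was not tested.

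**Figure D5:**
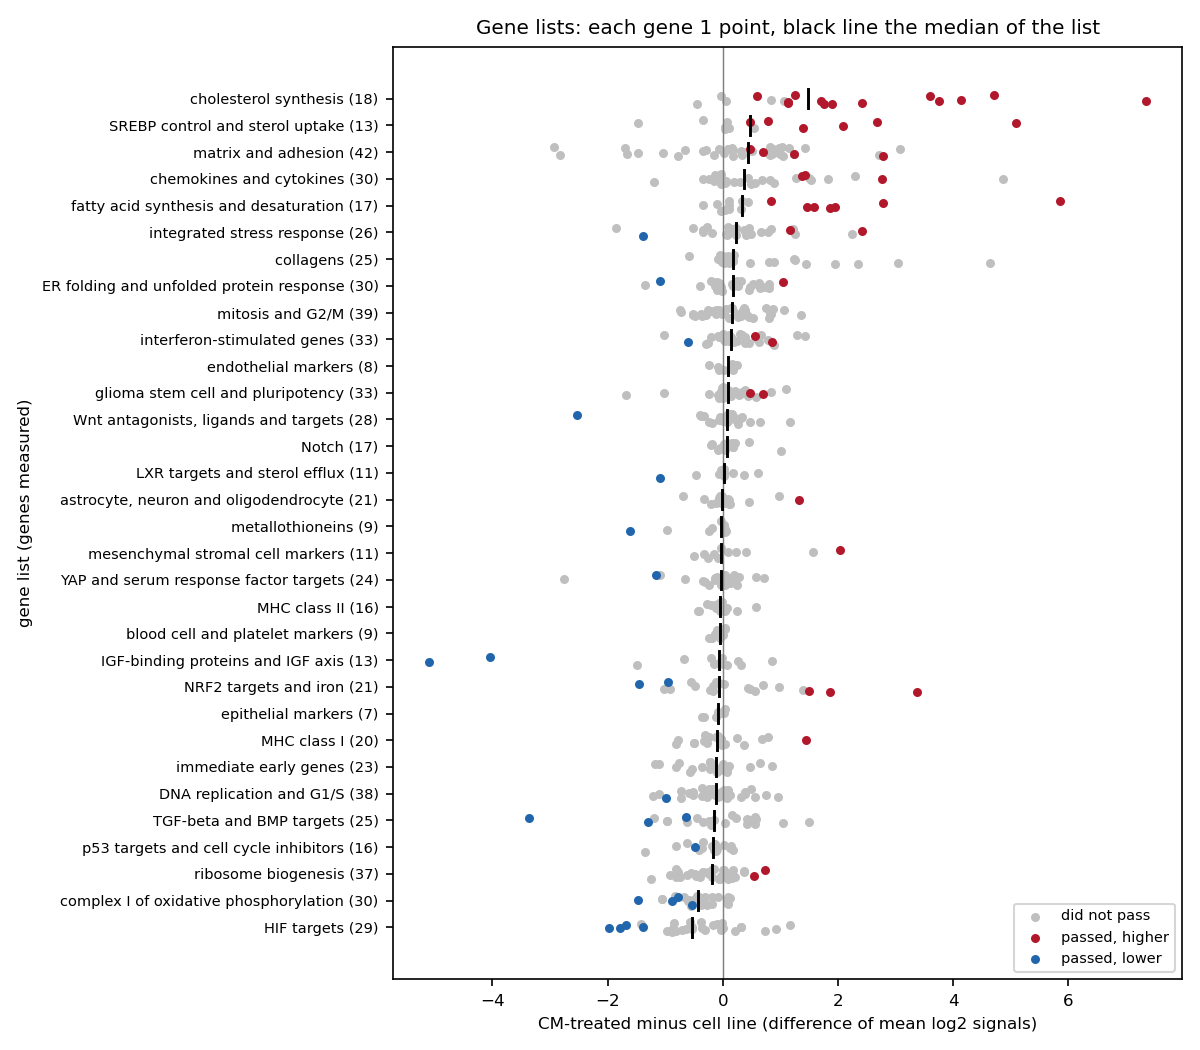
Log2 difference of CM-treated gliospheres and cell line (x axis) for each measured gene of 32 lists (y axis, number measured in brackets), ordered by the list median (black line). Red points passed as higher, blue points passed as lower and grey points did not pass; cholesterol synthesis has the highest median, 1.48, and HIF targets are last at -0.53 (-0.20 without cell line replicate 1).

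The 2 kinds of CM were pooled by design. WJT against BMT gave 0 clusters at an adjusted p below 0.05 in limma, and 2061 of 67528 at 0.05 before adjustment. With 3 arrays each, this does not show that they act alike. Each was also set against the cell line alone, sharing the same 3 cell line arrays. BMT alone gave 22 higher and 2 lower clusters and WJT alone gave 28 and 6. The difference from the cell line was 7.48 in BMT and 7.22 in WJT for HMGCS1, 4.95 and 5.23 for INSIG1, and 3.56 and 3.64 for CYP51A1. HMGCS1 did not pass in either alone (limma, adjusted p = 0.0547 in BMT and 0.0507 in WJT). Of the 18 cholesterol enzymes, 3 passed in BMT alone and 3 in WJT alone. The gap was widest for IGFL3 among the 87 called genes described here, at 5.26 in BMT and 6.70 in WJT.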

How the data were processed

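RNA of U87MG cells was measured on Affymetrix human transcriptome arrays. The authors made the deposited log2 signals from the raw arrays with SST-RMA in the Transcriptome Analysis Console, at a version not given in the sample labels. Other probe sets (2995 of 70523) were left out, and gene symbols came from the array annotation: 23781 clusters had 1 symbol, 1543 several and 42204 none. The brightest cluster by mean stood for each of 22465 genes. The 2 groups were compared with lmFit and eBayes of limma 3.58.1 in R 4.3.3 (prior degrees of freedom 1.95), with p adjusted over all 67528 clusters. The fit assumes 1 spread for both groups. The cell line arrays lay 181.4 to 242.5 apart and the treated arrays 66.9 to 100.2, so that assumption does not hold over all clusters. Where the cell line spread is the larger, p values may be too small and confidence intervals too narrow. The genes named are the 15 largest rises and 15 largest falls among called clusters with 1 symbol, up to 4 members of each of 33 gene lists by smallest p, and genes of the study's cancer stem cell array, of which those that did not pass are mostly given as a count. Further called members of the lipid lists, levels of markers, PMVK and LSS were added after their values were seen. The comparison and the lists were chosen with earlier results of these data known, and the choice of promoter motifs followed the gene results. In simulated arrays of 67528 clusters, 41 of 50 shifted by 2 log2 and 42 of 50 shifted by -2 were recovered, with 5 false calls. The simulation gave both groups the same spread in each cluster. It therefore does not show the rate of false calls in the real arrays, where the cell line spread more. Alternatives were other groupings, variance models, scalings and filters, a replicate block and each array left out, and replicate 1 as sole control was added after seeing the data. Arrays carry no read depth, so their number limits the precision. Tables and figures used Python 3.11.15, pandas 2.3.3, numpy 2.4.6 and matplotlib 3.10.9. The PCR arrays and culture assays were not analysed here.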

Additional observations from a re-analysis of the deposited data

Results flagged for a closer look

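Each of the 103 genes with a difference in the report was checked for a treated array far from the other 5, and 6 genes (5.83%) had one, where chance gives about 1 in 20. BMT replicate 2 was high for ACAT2 at 10.73. WJT replicate 1 was low for PGK1 at 15.12 and for ITGA6 at 5.27. BMT replicate 3 was low for CCL20 at 6.45 and for IRF1 at 4.97. WJT replicate 2 was high for CD44 at 12.84. In these genes the gap to the nearest array was 0.63 to 0.83 of the range of the 6 treated arrays.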

How the results depend on the processing

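The counts of 651 higher and 634 lower clusters moved by over 1.5 times in several settings, and the cause was not tested. BMT alone gave 22 and 2 and WJT alone 28 and 6, with 3 treated arrays each. An intensity trend with robust prior gave 403 higher, and array weights, which lower the weight of cell line replicate 3 to 0.215, gave 271 and 373. Quantile normalization gave 1176 and 391, and median centring gave 336 lower. The study's criterion (unadjusted p of 0.05 or less, fold of at least 2) gave 1232 lower. Cell line replicate 1 as the sole control, chosen after seeing the data, gave 1553 lower, with its spread assumed to be that of the treated arrays. Leaving out 1 array gave 258 to 1468 higher and 189 to 2780 lower. With the replicate number as a block, 320 higher and 276 lower clusters passed. The labels give the numbers no shared source. Deviations of same-numbered arrays correlated above 0.1 in all 3 pairs of BMT and cell line (0.164, 0.252 and 0.19), in 1 of 3 pairs of WJT and cell line and in 0 of 3 pairs of BMT and WJT (9 pairs, from -0.30 to 0.25), and 5 of 9 arrays correlated best with their own number, so the numbers were not taken to pair the 9 arrays. With the block the matrix list had 0 calls in place of 4, the IGF list 0 in place of 2 and the complex I list 1 in place of 4.

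Of the 87 called genes with a value, 0 reversed in any setting. Their groups did not overlap, so settings that only regroup, weight or leave out arrays could not have reversed them. The settings kept 9 (BMT alone) to 87 of these calls (clusters with 1 symbol). The number kept was 64 in the fit of all 14 arrays, 59 with array weights, 55 with the block and 47 to 86 with 1 array left out.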

Other observations

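The 2 arrays of negative spheres, CD133-negative cells outside the comparison, were at levels near those of the cell line for the leading sterol genes. HMGCS1 was at 7.00 and 7.38 there, INSIG1 at 8.58 and 8.59, CYP51A1 at 10.31 and 10.57, and SCD at 12.95 and 13.62. For IGFBP1 they were at 9.53 and 9.64 and for ID1 at 10.96 and 10.76, in or above the range of the cell line arrays. These are levels only, and no test was made.

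Small RNA genes, grouped by symbol after their values were seen, were mostly on the lower side. Of 188 box C/D snoRNA clusters 157 had a negative difference, with a median of -0.39, and of 71 box H/ACA clusters 54 did, with a median of -0.36, beside -0.07 over all clusters. After quantile normalization these medians were -0.24 and -0.17, and after median centring -0.28 and -0.25. Of the clusters of both classes SNORD78, SNORD114-17 and SNORA71B passed as lower and none passed as higher.

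In 1080 genes cell line replicate 1 lay within the range of the treated arrays while replicates 2 and 3 lay below it, and in 1317 genes they lay above it. Replicate 3 alone lay outside the treated range in 3225 genes, replicate 2 alone in 1968 and replicate 1 alone in 1594.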
